A study of Mus musculus with 6 samples.

Results

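The H2AK119 deubiquitinases and their cofactors are 8 genes, chosen by what their products do and not by any measured value. They are *Bap1*, *Usp16*, *Usp21* and *Mysm1*, which encode enzymes that take ubiquitin off histone H2A, *Asxl1*, *Asxl2* and *Asxl3*, whose products are cofactors of BAP1, and *Hcfc1*, whose product BAP1 binds. Transcript entries for 8 of the 8 were found, 1 entry per gene, among 19338 gene symbols in the table. The study measured nuclear RNA by sequencing in embryonic stem cells of the mouse, of the genotype *Rybp* fl/fl;*Yaf2*-/-, grown without feeder cells on gelatin in serum and LIF, a cytokine that holds these cells in an undifferentiated state. Of 6 libraries, 3 came from untreated cells (UNT) and 3 from cells kept for 96 hr in 4-hydroxytamoxifen (OHT) at 800 nM, which activates a Cre recombinase that deletes the loxP-flanked *Rybp* gene. Both groups carry a deletion that disrupts *Yaf2*, the paralogue of *Rybp*. The *Yaf2*-/- line was raised from an isolated colony, and no OHT-treated cells without floxed *Rybp* are among the libraries.

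RYBP is a subunit of variant Polycomb repressive complex 1 (PRC1), the ligase that places a single ubiquitin on the tail of histone H2A (H2AK119ub1), a mark bound up with repression of developmental genes. Several enzymes remove this mark. BAP1, a cysteine protease, works in the Polycomb repressive deubiquitinase complex (PR-DUB), where an ASXL protein is needed for its activity. USP16 and USP21 belong to the ubiquitin-specific protease family, and MYSM1 is a metalloprotease.

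Each value below is a base mean, the count of read pairs on an entry after division by a size factor for each library, which the authors averaged over all libraries. It is therefore a single level per gene for UNT and OHT cells together, with no spread between replicates. Values per library and the change of these genes between UNT and OHT were not analysed here. Sequencing depth is thus unknown, and whether neighbouring levels differ beyond their spread cannot be said. In bulk RNA, fewer cells that express a gene and less RNA per cell cannot be told apart. The identity of the cells was checked on marker genes. Of 10 embryonic stem cell markers, 9 had an entry and 9 of these lay above the median level of all entries, with base means from 1560 for *Klf2* to 12088 for *Tfcp2l1*. None of the 5 primitive endoderm markers and none of the 5 mesoderm markers lay above that median, and 1 of 5 did so among trophoblast, among neural and among fibroblast markers. Per kb of transcript span, a scale explained below, the counts above the median were 9 of 9 for embryonic stem cell markers, 0 of 5 for primitive endoderm and for mesoderm, 1 of 5 for trophoblast, 3 of 5 for neural (*Tubb3*, *Olig2* and *Neurod1*, at 59.0, 45.9 and 24.5 normalised counts per kb) and 2 of 5 for fibroblast markers (*Col1a1* and *Thy1*). The part of such cells in the levels below was not tested. *Yaf2* had a base mean of 3.24. *Rybp* had a base mean of 13983, a mean over cells with and without OHT that cannot check the deletion.

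In base mean, which is not corrected for gene length, all 8 genes lay above the median of the entries. Their base means ran from 606.3 for *Usp21* to 7547 for *Asxl2*, with a median of 2936, against a median of 306.7 and quartiles of 25.9 and 1260 over the 19198 entries with a base mean above 0. Each gene's percentile below is the percentage of those entries with a lower base mean, so 50% of entries lie above percentile 50. The plot of base means shows a higher set of *Asxl2*, *Asxl1*, *Hcfc1* and *Mysm1*, at percentile 93.2 or higher, and a lower set of *Bap1*, *Usp16*, *Asxl3* and *Usp21*, at percentile 78.0 or lower.

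**Figure D1:**
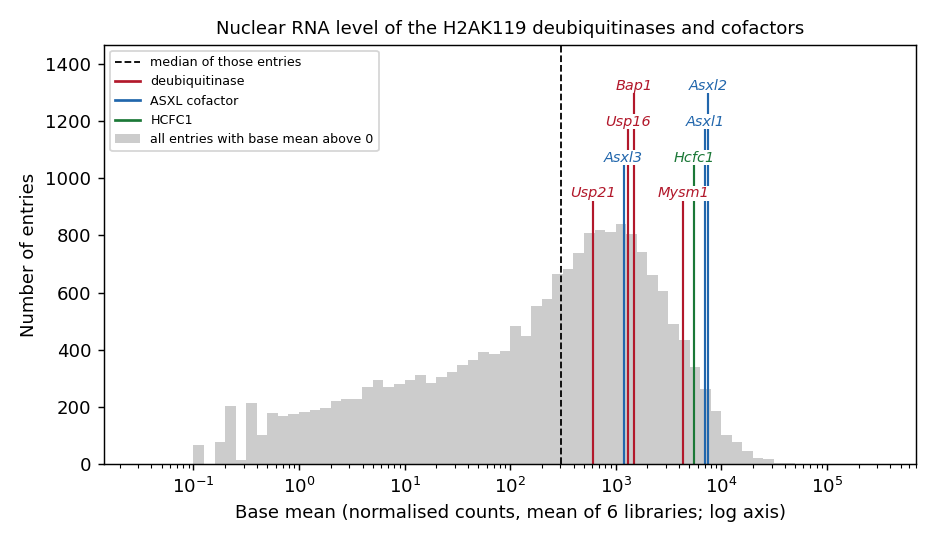
Base mean in normalised counts (log axis) of the 8 genes as vertical lines over a histogram of the 19198 entries with a base mean above 0, coloured by role. The 8 lines stand to the right of the dashed median of 306.7, from *Usp21* at 606.3 to *Asxl2* at 7547.

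A long gene collects more read pairs than a short one at the same level of RNA, so genes were compared with each other per kb. The main length was the transcript span, introns included, because nuclear RNA is rich in unspliced transcripts, and the length of the exons was the alternative. Whether read pairs were counted over introns is not given in the sources used here. Entries with a span had a median of 14.0 normalised counts per kb of span, and those with exons a median of 118.8 normalised counts per kb of exons. Of the 8 genes, 7 lay above the median on either scale, and *Asxl3* lay below both.

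The deubiquitinases come first. *Bap1* spans 31251450 to 31259944 on chromosome 14 (mm10, plus strand) and has 17 exons, which fill 40.7% of its 8.495 kb. Its base mean was 1487, at percentile 78.0. Per kb of span it was the highest of the enzymes, with 175.0 normalised counts per kb, at percentile 93.7. Per kb of exons it had 429.8 normalised counts and followed *Mysm1* among the enzymes.

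*Mysm1* spans 94942040 to 94979100 on chromosome 4 (minus strand), with 20 exons over 37.1 kb. Its base mean was 4385, at percentile 93.2, which is 56.3% of the summed base mean of the 4 enzymes. Corrected for length this share was smaller. *Mysm1* had 118.3 normalised counts per kb of span and 591.0 per kb of exons, or 27.0% and 34.7% of the sum over the enzymes on the respective scale.

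*Usp21* and *Usp16* had the lowest base means of the enzymes. *Usp21*, at 171281945 to 171287991 on chromosome 1 (minus strand), is the shortest of all 8 genes at 6.047 kb. Its base mean of 606.3 lay at percentile 61.4, and its 100.3 normalised counts per kb of span at percentile 87.3. *Usp16*, at 87454703 to 87483517 on chromosome 16 (plus strand), had a base mean of 1306, at percentile 75.6. Per kb of span *Usp16* had 45.3 normalised counts, the lowest of the enzymes, and *Usp21* was 2.21 times higher. Per kb of exons the order was the opposite, with 407.4 for *Usp16* and 273.2 for *Usp21*. *Usp16* overlaps *Cct8*, a chaperonin subunit gene on the other strand, by 192 bp at its 3′ end. The libraries were made with a strand-preserving kit, while the strand setting of the counting is not given in the sources used here.

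Per kb, the ASXL genes differed more among themselves than the enzymes did, while in base mean the enzymes differed more, with a ratio of 7.23 for *Mysm1* to *Usp21* against 6.36 for *Asxl2* to *Asxl3*. ASXL proteins bind BAP1 through a conserved domain, each in a complex of its own. *Asxl1*, at 153345845 to 153404007 on chromosome 2 (plus strand), had a base mean of 7077. *Asxl2*, at 3426901 to 3502466 on chromosome 12 (plus strand), had a base mean of 7547. These are the highest base means of the 8 genes, at percentiles 97.0 and 97.4. *Asxl1* had 121.7 normalised counts per kb of span and *Asxl2* had 99.9, while per kb of exons *Asxl2* was the higher, with 1691 against 1016. Which of these genes is the higher therefore turns on the length used. *Asxl1* overlaps a gene on the other strand by 229 bp at its 5′ end, and *Asxl2* overlaps an antisense gene by 111 bp at its 5′ end.

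*Asxl3*, at 22345089 to 22530227 on chromosome 18 (plus strand), is the longest of the 8 genes, with 13 exons over 185.1 kb. Its base mean was 1187, at percentile 73.8. Spread over its length this came to 6.41 normalised counts per kb of span, at percentile 39.3, and to 101.5 per kb of exons, at percentile 47.6. On the span scale *Asxl1* was 19.0 times and *Asxl2* 15.6 times higher than *Asxl3*, and on the exon scale 10.0 times and 16.7 times. *Asxl3* made up 2.81% of the summed ASXL level per kb of span and 3.61% per kb of exons. With or without correction for length *Asxl3* was thus the lowest of the ASXL genes, and on either length scale the lowest of all 8.

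*Hcfc1* encodes a chromatin-bound regulator that BAP1, histone methyltransferases and the glycosyltransferase OGT bind, and that OGT cleaves. It spans 73942792 to 73966357 on chromosome X (minus strand), with 26 exons over 23.6 kb. Its base mean was 5564, at percentile 95.3, and its 236.1 normalised counts per kb of span were the highest of the 8 genes, 1.35 times those of *Bap1*. Per kb of exons *Hcfc1* had 683.7 normalised counts and followed *Asxl2* and *Asxl1*.

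**Figure D2:**
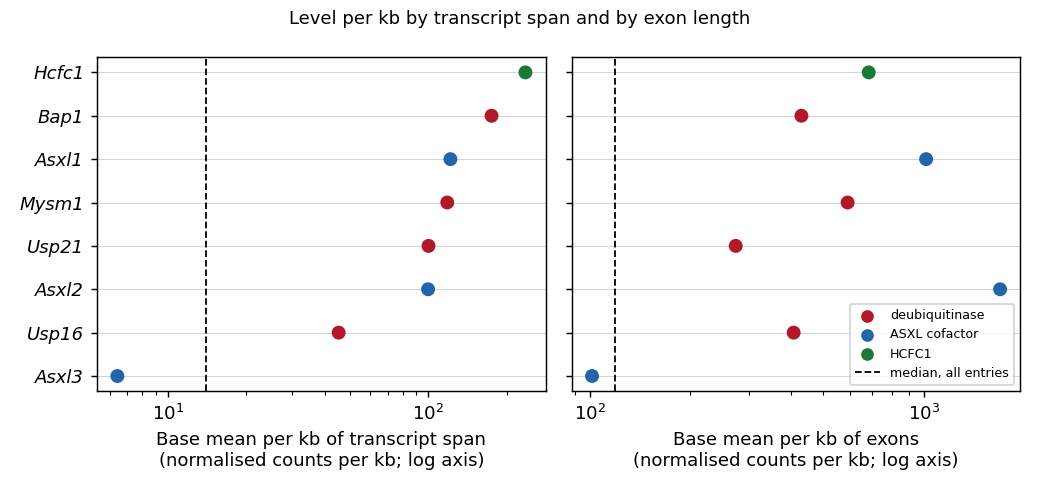
Level of the 8 genes in normalised counts per kb of transcript span (left) and per kb of exons (right), on log axes, with the median of all entries dashed. *Asxl3* is the one gene left of the median in either panel, at 6.41 and 101.5, while *Hcfc1* leads on the left at 236.1 and *Asxl2* on the right at 1691.

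The variant form of PRC1 that contains KDM2B is drawn to unmethylated CpG islands through this subunit. The CpG content of the promoters is therefore given beside these levels. Promoter windows from RefSeq (GRCm38.p6, the same coordinates as mm10) matched 7 of the 8 genes, all but *Asxl3*. CpG dinucleotides were counted in the 250 bases before the start site, where the median over 32851 promoters was 6, with quartiles of 2 and 16. The 7 genes had from 11 CpG in *Asxl1* to 43 in *Bap1*, all above that median, and 4 of them (*Bap1*, *Asxl2*, *Mysm1* and *Hcfc1*) exceeded the upper quartile. *Asxl2* had 31, *Mysm1* and *Hcfc1* had 19 each, *Usp21* had 14 and *Usp16* had 12, the last before a RefSeq start site 282 bp from the start of the entry used here. Of all promoters, 0.712% had as many CpG as *Bap1* or more, and 35.6% as many as *Asxl1* or more. The promoters with the most and the fewest CpG are printed to show this range, from 250 to 51 bases before the RefSeq start site, 5′ to 3′ on the plus strand, with each CG in capitals. The *Bap1* stretch is chr14:31251239-31251438 with 35 CpG, and the *Asxl1* stretch is chr2:153345580-153345779 with 11 CpG.
Bap1: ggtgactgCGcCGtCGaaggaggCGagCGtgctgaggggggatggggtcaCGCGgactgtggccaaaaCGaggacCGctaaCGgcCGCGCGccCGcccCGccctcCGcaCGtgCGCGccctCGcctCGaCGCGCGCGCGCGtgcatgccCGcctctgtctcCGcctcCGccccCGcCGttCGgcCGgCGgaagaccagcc
Asxl1: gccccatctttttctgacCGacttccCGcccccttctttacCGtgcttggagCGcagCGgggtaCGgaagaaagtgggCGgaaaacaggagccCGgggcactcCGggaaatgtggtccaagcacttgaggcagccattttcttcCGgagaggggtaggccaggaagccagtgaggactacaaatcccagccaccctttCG
In these letters the *Bap1* stretch holds long runs of CG next to CG, and in *Asxl1* they stand apart. *Bap1*, with more CpG, had the higher level per kb of span of the pair, while *Asxl1* had the higher base mean and the higher level per kb of exons.

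Other genes of the pathway were taken from fixed lists. Of 6 partners of PR-DUB, 6 had a level per kb of span above the median, with a list median of 44.5 normalised counts per kb against 109.3 for the 8 genes. On the other scales *Mbd6* lay below the median, at percentile 48.8 in base mean and 42.1 per kb of exons. *Ogt*, the glycosyltransferase that modifies and cleaves HCFC1, was the highest at 240.7 normalised counts per kb of span, close to *Hcfc1* on that scale. Per kb of exons *Ogt* had 1980 normalised counts, against 683.7 for *Hcfc1*. *Foxk2* and *Foxk1*, forkhead factors that bring BAP1 to DNA, had 48.5 and 14.7. *Mbd5* and *Mbd6*, methyl-CpG-binding domain proteins that join PR-DUB, had 78.8 and 40.6, and *Kdm1b*, a histone demethylase, had 24.3.

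Among 9 partners and relatives of HCFC1, 8 lay above the median per kb of span. *Ash2l*, a core subunit of H3K4 methyltransferase complexes, was the highest with 287.2 normalised counts per kb, from the higher of its 2 entries. *Thap11*, a DNA-binding factor that recruits HCFC1, had 233.8. *Thap11* has 1 exon, so its level per kb of exons was the same, but at percentile 61.9 against 95.7 per kb of span. The paralogue *Hcfc2* was the lowest per kb of span with 11.8, against 236.1 for *Hcfc1*. Per kb of exons *Hcfc2* had 149.7 normalised counts, above the median of 118.8, against 683.7 for *Hcfc1*. Both have a single entry.

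Of 11 other ubiquitin proteases that act on H2A or H2B or associate with PRC1, 10 had an entry and 9 lay above the median per kb of span. *Usp7*, which associates with PRC1, had 227.4 normalised counts per kb and exceeded the 4 H2AK119 enzymes. *Usp22*, the enzyme of the SAGA coactivator that acts mainly on H2B, had 101.3, and *Usp46* was the lowest with 10.9. *Usp11* (63.5), *Brcc3* (40.1), *Usp27x* (30.6), *Usp12* (27.8), *Usp51* (27.2), *Usp3* (24.6) and *Usp49* (24.3) lay below *Bap1*, *Mysm1* and *Usp21* in level per kb of span. This order also turns on the length used. Per kb of exons *Usp3* had 667.7 normalised counts and exceeded each of the 4 H2AK119 enzymes. *Usp12* (386.9), *Brcc3* (347.5) and *Usp11* (304.8) exceeded *Usp21* on that scale, while *Usp49* (165.3), *Usp51* (36.3) and *Usp27x* (30.6) lay below each of the enzymes. In the SAGA module with *Usp22*, 3 of 4 genes lay above the median per kb of span, from 11.6 for *Atxn7* to 303.1 for *Atxn7l3*. *Atxn7* lay above the median in base mean, at percentile 72.4, and per kb of exons, at percentile 55.0.

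The ligase that places the mark offers the counterpart. Of 13 PRC1 genes, 10 lay above the median per kb of span, with a list median of 43.0 normalised counts per kb. The lowest was *Yaf2* at 0.0617 normalised counts per kb, a gene disrupted by a deletion in both groups. The highest was *Rybp* at 237.3, a mean over cells with and without its deletion. *Rnf2*, which encodes the catalytic subunit RING1B, had 79.0 normalised counts per kb of span and its paralogue *Ring1* had 48.8. *Bap1*, *Mysm1* and *Usp21* lay above both, and *Usp16* below both. Per kb of exons *Rnf2* had 789.0 normalised counts and exceeded each of the 4 enzymes, and *Ring1* had 93.4 and lay below each of them, so the order of writer and eraser genes also turns on the length used. Among the PCGF genes the levels per kb of span ran from 9.10 for *Bmi1* to 140.0 for *Pcgf2*. Per kb of exons *Bmi1* was again the lowest with 24.3 normalised counts, and *Pcgf5* was the highest with 744.2, against 594.9 for *Pcgf2*. These are levels of nuclear RNA, and protein or enzyme activity was not measured in these libraries.

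**Figure D3:**
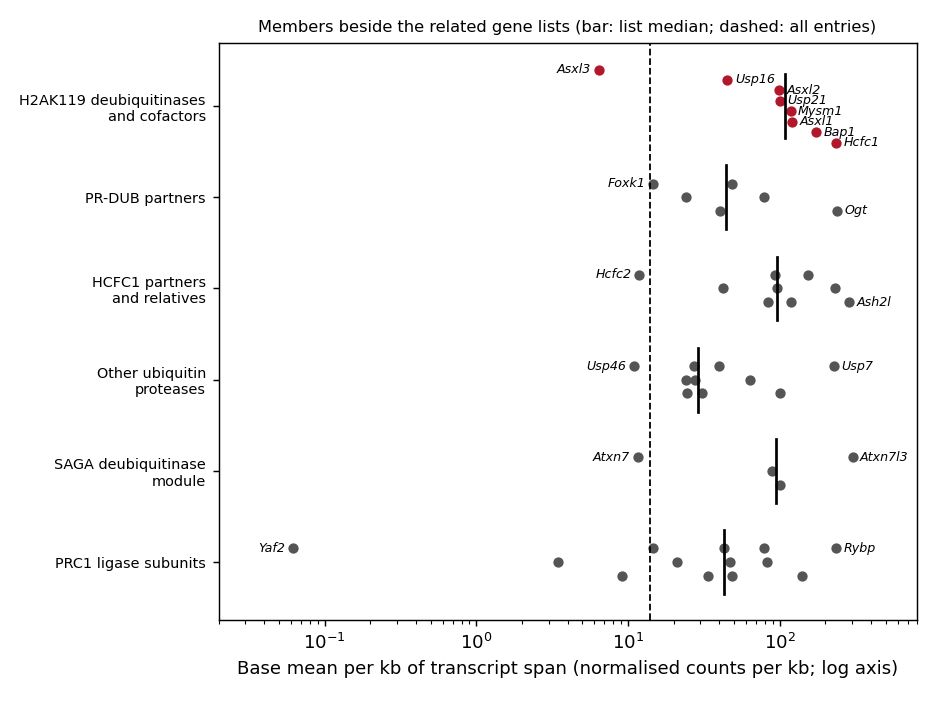
Level in normalised counts per kb of transcript span (log axis) of the 8 genes (red) and of the related lists (grey), each point 1 gene, with list medians as bars and the median of all entries, 14.0, dashed. The red points, *Asxl3* excepted, lie between 45.3 and 236.1, and in each grey list the lowest and highest gene are named.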

How the data were processed

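Nuclear RNA from 3 UNT and 3 OHT samples was sequenced after rRNA depletion, with a directional kit and paired-end reads. According to the methods and the submitters' processing notes, the authors filtered out rRNA with bowtie2 and aligned the other reads to mm10, first with STAR and, where STAR failed, with bowtie2. The authors counted pairs of reads per gene of a RefSeq set filtered on size, mappability and unique ends, and ran DESeq2 on the counts. The base mean deposited by the authors is a signal: counts were divided by DESeq2 size factors and averaged across the libraries. The remaining columns of the table hold the authors' own comparison of OHT with UNT (fold change, its standard error, a test statistic, p-values and a threshold mark) and were not used. The planned edgeR test needs counts per library and was not run.

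Of 20633 entries, 20560 received a symbol, 20446 of them through RefSeq's GRCm38.p6 genes and the rest through GENCODE vM21. Positions, spans and exon lengths are those of the GENCODE transcript paired with the RefSeq identifier, the one with the longest exons where several were paired, and were found for 20261 entries. Where a gene had several entries, the one with the highest base mean was used. Levels were ranked among the 19198 entries with a base mean above 0, and levels per kb among 18871 of these with a length. No test was run, because a pooled mean has no replicate error. The 8 genes and all lists were chosen with earlier results of these data known. The rule named each of the 8 genes, *Rybp* and *Yaf2*, and from each list the highest, the lowest and the genes a member is compared with. Other list members were added for completeness. The alternatives were the entry kept per gene, the background of the percentile, and the length. Computations used Python 3.11.15, numpy 2.4.6, pandas 2.3.3, scipy 1.17.1 and matplotlib 3.10.9, and the ranking was tested on simulated data.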

Additional observations from a re-analysis of the deposited data

How the results depend on the processing

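No paired analysis was possible because values per library were not analysed here, and for the same reason the edgeR and DESeq2 fits and leaving out replicates were not run. Each gene has 1 entry, so summing entries or keeping the lowest changed no percentile. A background of 1 entry per gene moved no percentile beyond its 95% binomial interval. That interval reflects the number of entries in the background and not the spread of a gene's level between libraries. The number of genes above the median stayed at 8 under a base mean minimum of 10 and was 7 per kb of span and per kb of exons, the exception being *Asxl3*. With all entries as background the percentiles were 79.5 for *Bap1*, 75.7 for *Asxl3*, 77.3 for *Usp16*, 64.1 for *Usp21*, 93.7 for *Mysm1* and 95.6 for *Hcfc1*. With a base mean of at least 10 they were 72.9 for *Bap1*, 96.3 for *Asxl1*, 96.8 for *Asxl2*, 67.9 for *Asxl3*, 70.1 for *Usp16*, 52.7 for *Usp21*, 91.7 for *Mysm1* and 94.2 for *Hcfc1*. Per kb of span they were 93.7 for *Bap1*, 90.1 for *Asxl1*, 87.2 for *Asxl2*, 39.3 for *Asxl3*, 72.4 for *Usp16*, 87.3 for *Usp21*, 89.7 for *Mysm1* and 95.7 for *Hcfc1*. Per kb of exons they were 74.7 for *Bap1*, 89.9 for *Asxl1*, 95.2 for *Asxl2*, 47.6 for *Asxl3*, 73.5 for *Usp16*, 65.1 for *Usp21*, 81.1 for *Mysm1* and 83.6 for *Hcfc1*. In the order of levels per kb from the highest down, exon length in place of span put *Asxl2* at place 1 instead of 6, *Asxl1* at 2 instead of 3, *Hcfc1* at 3 instead of 1, *Bap1* at 5 instead of 2, *Usp16* at 6 instead of 7 and *Usp21* at 7 instead of 5, while *Mysm1* stayed at 4 and *Asxl3* at 8. These shifts follow from the share of each span that exons fill, 5.90% in *Asxl2* and 40.7% in *Bap1*.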
